A study of Caenorhabditis elegans with 12 samples.

Results

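Gene expression in whole worms of the triple mutant spr-4;spr-3;daf-2 was compared with that in N2, the wild-type laboratory strain of Caenorhabditis elegans, on day 10. The libraries were chosen by the genotype in their labels, with no measured value used: 6 of the 12 libraries, 3 of the triple mutant and 3 of N2. The other 6 libraries, 3 of the daf-2 single mutant and 3 of the spr-4;spr-3 double mutant, entered the fit so that 1 estimate of the spread served all genotypes, and their values are given only to place a gene. All 4 genotypes were in the N2 background, were collected at the same age, and gave RNA from the whole body of pooled worms. The labels name the mutated genes but not the alleles. The triple mutant carries lesions at 3 loci at once, so a difference from N2 cannot be assigned to one of them from this comparison alone.

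daf-2 encodes the worm's only insulin/IGF-1 receptor. When its signal is low, the transcription factor DAF-16/FOXO enters the nucleus and turns on genes of stress resistance, fat storage and long life, known as class I targets, while a second set, the class II genes of growth and digestion, falls. PQM-1 is a zinc-finger factor tied to the class II set. The spr-3 and spr-4 products are zinc-finger proteins found in screens for suppressors of presenilin mutants, and they are counted among the worm relatives of REST, which represses neuronal genes in mammals. The title of the study joins neural excitation, REST and lifespan.

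The 6 libraries held 27576129 to 41738783 counts assigned to genes. Log-scale values correlated at 0.9501 to 0.9555 between N2 libraries and at 0.9474 to 0.9506 between triple mutant libraries, across genes. Between the groups the correlation was 0.9033 to 0.9124, below each within-group value, and the first principal component of these libraries, with 48.1% of the variance, separated the genotypes. spr-4 read 46.1, 76.8 and 53.8 CPM in N2 and 36.0, 21.8 and 40.3 CPM in the triple mutant, a log2 difference of -0.85 ± 0.21 (SE) with an adjusted p of 0.0084, and the adjusted p was 0.052 without N2 replicate 2. spr-3 (0.84 ± 0.13) and daf-2 (0.81 ± 0.14) were both higher in the triple mutant, so the libraries do not show the lesions as lost transcripts. The labels do not say whether an allele removes RNA, and the genotypes are taken as labelled. daf-16 itself read 71.8, 75.5 and 87.7 CPM in N2 and 91.2, 89.6 and 83.7 CPM in the triple mutant, and the ranges overlapped (log2 difference 0.17 ± 0.13, adjusted p = 0.37).

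Of 18342 genes with enough counts to test, 4068 (22.2%) differed between the triple mutant and N2 at an adjusted p under 0.05: 1987 (10.8%) were higher and 2081 (11.3%) were lower in the triple mutant. A change of at least 2-fold was fitted for 2095 of them (11.4%), and of at least 4-fold for 834 (4.55%). Values are CPM, that is counts scaled to a common library size scaled by TMM factors, differences are log2(triple mutant / N2) with their standard error (SE), and p-values are from edgeR's quasi-likelihood test with Benjamini-Hochberg adjustment over all tested genes. Over all tested genes the median log2 difference was 0.04. The calls leaned one way with level. Among genes over 100 CPM, 20.4% were lower and 7.4% higher, whereas among genes of 1 to 10 CPM 8.79% were lower and 12.7% higher. The percentages of all tested genes called higher and lower are the background against which the counts of each gene list below are read. List counts given without a library come from fits with fewer calls over all genes as well. Those fits called 1402 to 1683 genes higher and 1529 to 1834 lower.

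**Figure D1:**
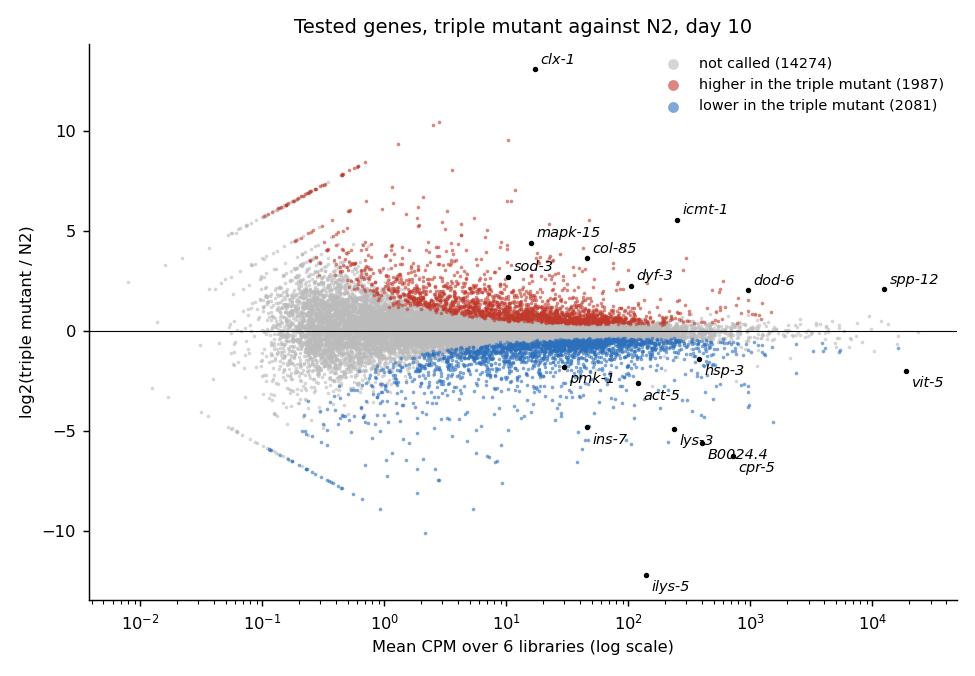
Log2 difference between the triple mutant and N2 (vertical axis) against mean CPM over the 6 libraries (horizontal axis, log scale) for the 18342 tested genes, with genes called higher or lower in colour and some described genes named. Genes lower in the triple mutant reach further into the high levels: cpr-5, lys-3 and vit-5 lie below the line, and spp-12, icmt-1 and dod-6 above it.

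The genes known as DAF-16 targets changed in both directions. Of 32 tested class I genes 13 were higher and 5 lower (median log2 difference 0.28), and of 12 class II genes 6 were lower (median -1.86). No class II gene was higher by edgeR, with 0 higher at an unadjusted p under 0.05 and 0 by DESeq2. sod-3, the mitochondrial manganese superoxide dismutase that is the standard reporter of DAF-16, read 1.91, 2.46 and 3.74 CPM in N2 and 13.1, 21.1 and 20.2 CPM in the triple mutant. The groups did not overlap, as was so for 38.9% of all tested genes (19.8% higher and 19.1% lower), and sod-3 rose by a log2 difference of 2.74 ± 0.29 (SE) with an adjusted p of 4.8e-06. spp-12, a saposin-like antimicrobial protein, was the most abundant class I gene, at 4782, 3294 and 6228 CPM in N2 and 19426, 25659 and 16124 CPM in the triple mutant. Its lowest triple mutant library stood above the highest N2 library (2.1 ± 0.25). Other class I genes that rose were sod-5 (2.91 ± 0.24), hsp-12.3 (2.06 ± 0.18), mtl-1 (1.57 ± 0.22), lipl-4 (1.48 ± 0.18) and gst-4 (1.2 ± 0.16), that is a copper/zinc superoxide dismutase, a small heat shock protein, a metallothionein, a lysosomal lipase and a glutathione S-transferase. The class I genes that fell included aqp-1 (-3.17 ± 0.32), lys-8 (-1.50 ± 0.26), lys-7 (-1.02 ± 0.23) and fat-5 (-0.75 ± 0.17), an aquaglyceroporin of the gut, a pair of lysozymes and a fatty acid desaturase.

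Among class II genes, ins-7, an insulin-like peptide that acts as a DAF-2 agonist in the intestine, read 109, 63.4 and 95.9 CPM in N2 and 2.64, 3.94 and 2.94 CPM in the triple mutant. Each N2 library lay far above the triple mutant (a log2 difference of -4.81 ± 0.42 (SE) with an adjusted p of 5.4e-06). dod-19, a gene named as downstream of DAF-16, read 1602, 1421 and 2072 CPM in N2 and 181, 205 and 228 CPM in the triple mutant, and its groups were also apart (-3.05 ± 0.23). dod-6, a gene named the same way but known to rise when daf-2 is low, rose from 535, 268 and 304 CPM to 1365, 1914 and 1349 CPM (2.06 ± 0.28). vit-5, a yolk protein gene, was the most abundant of the class and fell, with a log2 difference of -1.98 ± 0.35 (SE) with an adjusted p of 0.0011, at 23300.0, 30475 and 37048 CPM in N2 and 7793, 6990.1 and 8221 CPM in the triple mutant. The other called members were nuc-1 (-2.23 ± 0.22), dod-23 (-1.74 ± 0.24) and dod-17 (-5.0 ± 1.60), of which dod-17 was named after its values were seen and lost its call without N2 replicate 2 or 3 or triple mutant replicate 2 or 3, at adjusted p-values of 0.066 to 0.11.

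Of 35 tested insulin-like peptide genes 5 were higher (3 without N2 replicate 2 or without triple mutant replicate 2) and 4 lower, near the shares over all genes. ins-11, a peptide induced by pathogens in the gut, fell from 41.0, 33.9 and 75.8 CPM to 4.33, 6.33 and 5.12 CPM (-3.25 ± 0.29). ins-29 (1.50 ± 0.28) and ins-23 (1.05 ± 0.22) rose. In the core of the pathway 2 of 22 genes were higher and 4 lower (2 without triple mutant replicate 3). pqm-1 fell from 80.0, 71.8 and 93.6 CPM to 26.9, 35.4 and 24 CPM (a log2 difference of -1.51 ± 0.17 (SE) with an adjusted p of 1.1e-05), and sgk-1, a kinase beside AKT that acts on DAF-16, fell from 32.2, 29.9 and 25.5 CPM to 6.90, 8.04 and 9.09 CPM (-1.86 ± 0.22). No library of one group reached the range of the other for either gene.

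**Figure D2:**
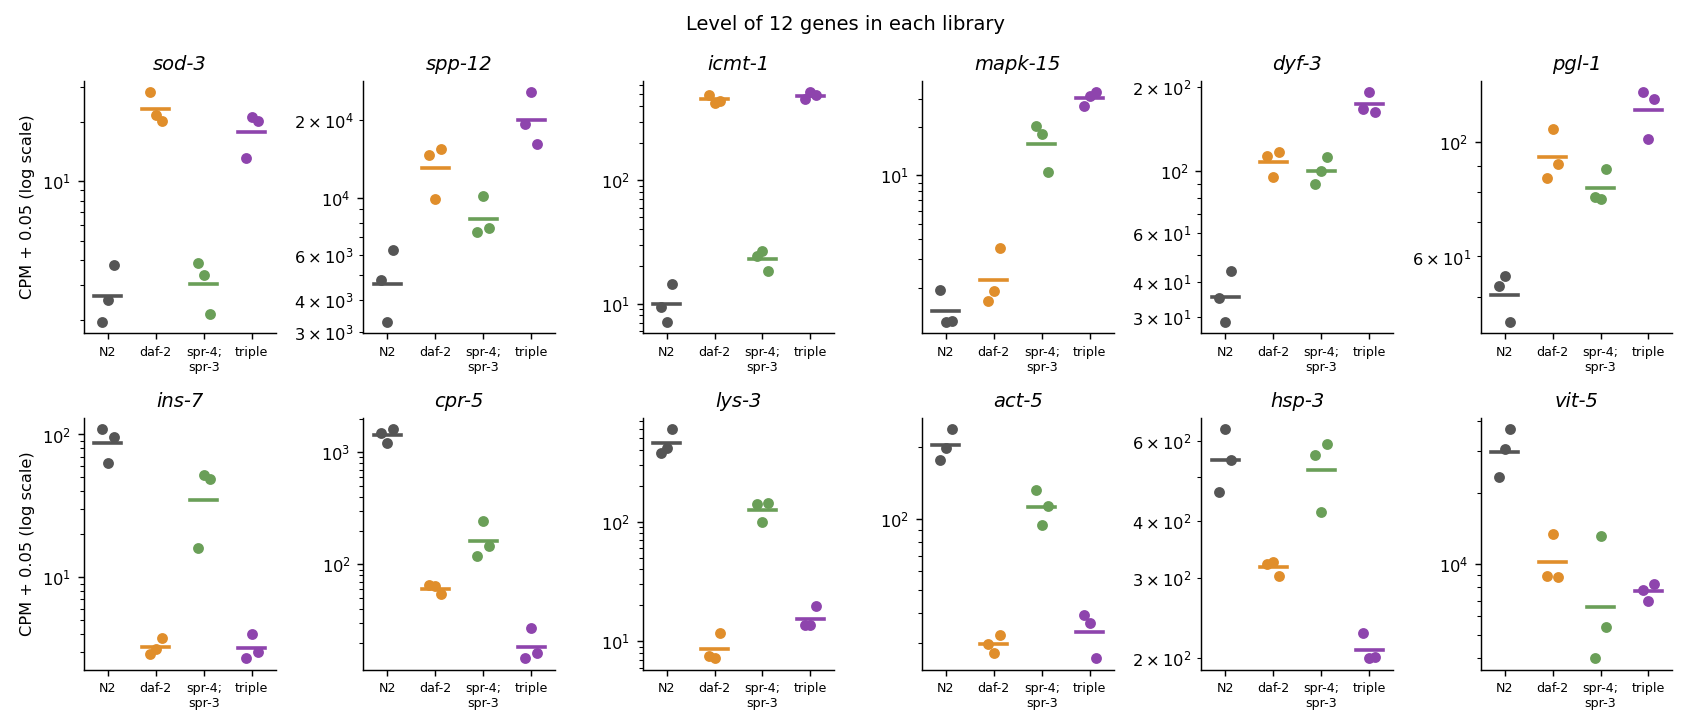
CPM (vertical axis, log scale, 0.05 CPM added to each value) of 12 genes in each of the 12 libraries; each dot is 1 library and the bar is the geometric mean of the plotted values. In all 12 panels the triple mutant and N2 dots do not overlap: sod-3, spp-12, icmt-1, mapk-15, dyf-3 and pgl-1 are higher, and ins-7, cpr-5, lys-3, act-5, hsp-3 and vit-5 are lower.

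The largest rises among genes with a mean of at least 5 CPM included enzymes, collagens and unnamed genes. clx-1 (collagen-like; chromosome IV, 7734648 to 7736324, WBcel235) had no counts in the 3 N2 libraries and 25.9, 47.9 and 30.2 CPM in the triple mutant, at least 1021-fold higher against a floor of 3 counts over the N2 group. icmt-1, an isoprenylcysteine carboxyl methyltransferase that finishes the lipid tail of prenylated proteins (chromosome I, 4901918 to 4903264), read 9.23, 7.08 and 14.4 CPM in N2 and 456, 518 and 490.3 CPM in the triple mutant. The triple mutant libraries were within a narrow range and far above N2 (a log2 difference of 5.58 ± 0.24 (SE) with an adjusted p of 4.5e-10). Y51A2A.4 had 2 counts in all N2 libraries against 2223 in the triple mutant, a ratio of 898 with a 95% counting interval of 248 to 7419. alh-2, an aldehyde dehydrogenase, read 0.675, 0.295 and 0.272 CPM in N2 and 12.3, 11.7 and 16.9 CPM in the triple mutant (5.05 ± 0.40). Other genes of this rank were ttbk-4 (4.33 ± 0.33), col-2 (3.93 ± 0.27), cyp-33C2 (3.68 ± 0.25), col-85 (3.65 ± 0.24), dao-6 (3.65 ± 0.31), grd-3 (3.60 ± 0.45), col-50 (3.51 ± 0.28) and fkb-4 (3.50 ± 0.20), and of genes with a sequence name alone C08F11.17 (7.06 ± 0.46) and W01B6.5 (6.52 ± 0.64). ttbk-4 is a tau-tubulin kinase, grd-3 a hedgehog-related protein, fkb-4 an FK506-binding peptidyl-prolyl isomerase, and dao-6 was named for high expression in dauer larvae or ageing daf-2 worms. col-85 overlaps 3 annotated genes, and the libraries do not mark strand, so its reads may be shared.

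The largest falls among genes with a mean of at least 5 CPM included proteases, lysozymes, lipases and unnamed genes. cpr-5, a cathepsin B-like cysteine protease of the gut (chromosome V, 1132598 to 1134036), read 1478, 1202 and 1607 CPM in N2 and 14.5, 26.9 and 16.1 CPM in the triple mutant. The N2 libraries all stood far above the highest triple mutant library (a log2 difference of -6.22 ± 0.31 (SE) with an adjusted p of 2.7e-09). Its neighbour cpr-8 read 16.4, 13.7 and 19.8 CPM in N2 and 0.367, 0.236 and 0 CPM in the triple mutant (-6.46 ± 0.59). ilys-5, an invertebrate-type lysozyme, had 395, 223 and 223 CPM in N2 against 6 counts in all 3 triple mutant libraries. nhx-6, a sodium/proton exchanger, had 913 counts in N2 against 2 in the triple mutant, a ratio of 565 with a 95% counting interval of 156 to 4673. The others of this rank were clec-31 (-7.59 ± 1.09), nspc-16 (-6.52 ± 0.68), lipl-5 (-6.51 ± 0.81), nspc-18 (-6.30 ± 0.98), clec-10 (-6.25 ± 0.77), lipl-1 (-5.89 ± 0.67), arrd-8 (-5.70 ± 0.44) and ilys-2 (-5.44 ± 0.26) and, with a sequence name alone, W06G6.20 (-6.10 ± 0.58), ZK896.4 (-5.61 ± 0.41) and B0024.4 (-5.58 ± 0.21). nspc-16 and nspc-18 belong to a cluster of near-identical peptide genes whose reads cannot be split with certainty.

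Many genes of the intestine were lower in the triple mutant. Of 40 tested genes of the brush border and of gut differentiation, 25 were lower and 1 higher (median -1.02), against 11.3% lower and 10.8% higher over all genes. act-5, the actin of intestinal microvilli, read 177, 199 and 238 CPM in N2 and 39.2, 36.4 and 25.8 CPM in the triple mutant. The lowest N2 library was above the highest triple mutant library by a wide margin (a log2 difference of -2.60 ± 0.18 (SE) with an adjusted p of 5.6e-08). The intermediate filament genes of the same apical web, ifb-2 and ifd-2, fell from 30.0, 39.6 and 41.3 CPM to 8.51, 10.8 and 7.95 CPM (-2.02 ± 0.21) and from 28.4, 31.7 and 37.7 CPM to 2.94, 4.83 and 4.67 CPM (-2.97 ± 0.26). elt-2, the GATA factor that specifies the intestine, read 11.3, 9.24 and 11.1 CPM in N2 and 8.84, 7.17 and 7.59 CPM in the triple mutant, and ges-1, a gut esterase, 7.05, 8.72 and 7.62 CPM in N2 and 4.99, 8.40 and 6.41 CPM in the triple mutant. Neither passed the test (-0.43 ± 0.20, adjusted p = 0.14, and -0.24 ± 0.26, adjusted p = 0.57). In whole worms fewer cells of a type and less RNA per cell cannot be told apart. The 4 intestine markers together summed to 226, 257 and 298 CPM in N2 and 61.5, 62.8 and 47.7 CPM in the triple mutant, with act-5 the largest part, and their part in the falls of gut genes was not tested.

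The enzymes that digest protein and nucleic acid in the gut lumen and lysosome were mostly lower. Of 27 cathepsin and aspartic protease genes, with the nucleases kept in that list, 20 were lower (median -1.20). By edgeR 0 were higher, with 2 higher at an unadjusted p under 0.05 and 0 by DESeq2, but edgeR called 2 higher without N2 replicate 1, 1 without N2 replicate 3 and 3 with no filter on low counts. cpr-4, another cathepsin B, read 976, 846 and 892 CPM in N2 and 119.8, 186 and 103 CPM in the triple mutant (-2.73 ± 0.31). The spread within each group was less than the gap between them. crn-6, a lysosomal DNase, fell, with a log2 difference of -2.91 ± 0.25 (SE) with an adjusted p of 5.0e-07, and so did nuc-1, the DNase II that clears DNA of apoptotic cells and of food, with a log2 difference of -2.23 ± 0.22 (SE) with an adjusted p of 3.2e-06. asp-12 (-1.94 ± 0.26) and cpz-1 (-0.69 ± 0.15) fell as well. Among lysosomal lipase genes 4 of 8 were lower and 1 higher. lipl-1 read 130.4, 85 and 30.7 CPM in N2 and 1.14, 2.18 and 0.814 CPM in the triple mutant and lipl-5 119, 78.6 and 28.8 CPM in N2 and 1.25, 0.578 and 0.718 CPM in the triple mutant. N2 replicate 3 was the lowest N2 library for both and still lay far above the triple mutant. lipl-4, whose overexpression lengthens life in worms, was the member that rose. Subunits of the V-ATPase, the proton pump of the lysosome and gut lumen, were lower in 7 of 21 cases (4 without N2 replicate 1 or without triple mutant replicate 1 or without triple mutant replicate 3) by small amounts, with examples vha-12 (-0.73 ± 0.13), vha-6 (-0.82 ± 0.18) and vha-1 (-0.50 ± 0.11).

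Among antimicrobial genes more were called lower than higher. Of 14 lysozyme genes 10 were lower and 1 higher (median -2.73), and the 1 higher call became 0 without any 1 of the 6 libraries. lys-3 read 374, 415 and 594 CPM in N2 and 13.6, 13.6 and 19.8 CPM in the triple mutant (a log2 difference of -4.87 ± 0.26 (SE) with an adjusted p of 3.2e-09). ilys-3, which digests bacteria in the pharynx and gut, read 1068, 705 and 616 CPM in N2 and 30.3, 48.9 and 42.2 CPM in the triple mutant (-4.30 ± 0.48), and ilys-2 read 100.3, 74.4 and 101 CPM in N2 and 1.39, 2.73 and 2.15 CPM in the triple mutant (a log2 difference of -5.44 ± 0.26 (SE) with an adjusted p of 1.2e-09). None of these had overlapping groups. lys-4 (-4.19 ± 0.54) and lys-6 (-2.46 ± 0.31), which lie side by side on chromosome IV with lys-5, fell too. The wider list of innate immunity effectors, which holds these lysozymes, had 23 of 46 lower and 4 higher (2 without N2 replicate 1 or without N2 replicate 3 or without triple mutant replicate 2), with a median of -1.31. The summed level of the list was nevertheless higher in each triple mutant library, at 14760, 10430 and 13610 CPM in N2 and 21860, 28900 and 18220 CPM in the triple mutant, a sum in which spp-12 had the largest share. Of 8 infection response genes of the irg family 4 were lower and 1 higher. The 1 higher call became 0 without N2 replicate 1 or 3 or triple mutant replicate 2 or 3. irg-8 read 183, 187 and 253 CPM in N2 and 12.4, 17.3 and 18.1 CPM in the triple mutant (-3.70 ± 0.24), and irg-5 (-1.87 ± 0.25), irg-1 (-1.49 ± 0.27) and irg-2 (-0.66 ± 0.14) were the others that were lower.

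Of 25 genes of the p38 MAP kinase cascade and its regulators, a pathway of innate immunity, 10 were lower and 0 higher by edgeR, with 0 higher at an unadjusted p under 0.05 and 0 by DESeq2. pmk-1, the p38 kinase, read 48.4, 39.1 and 50.6 CPM in N2 and 12.1, 13.9 and 14.5 CPM in the triple mutant (a log2 difference of -1.77 ± 0.17 (SE) with an adjusted p of 1.7e-06). Its groups were well apart. The upstream kinase sek-1 fell by less (-0.76 ± 0.14), as did mek-1 (-0.88 ± 0.14), kgb-1 (-0.73 ± 0.15) and the STAT factor sta-2 (-0.76 ± 0.16). zip-10, a bZIP factor, fell from 614, 505 and 799 CPM to 172, 212 and 201 CPM (-1.71 ± 0.16). Antimicrobial peptide genes of the epidermis were lower in 8 of 20 cases and higher in 1. nlp-33 read 84.8, 38.1 and 46.3 CPM in N2 and 4.48, 6.93 and 5.84 CPM in the triple mutant (-3.29 ± 0.31). The caenacin genes cnc-2 (-2.62 ± 0.34), cnc-6 (-2.38 ± 0.30) and cnc-7 (-3.84 ± 0.45) fell, and cnc-11 (1.92 ± 0.35) rose. C-type lectins, secreted carbohydrate-binding proteins, were lower in 46 of 158 cases and higher in 16 (10 without N2 replicate 2 or without triple mutant replicate 2). clec-150 fell from 206, 182 and 213 CPM to 50.1, 69.6 and 51.5 CPM (-1.81 ± 0.20), and clec-76 rose from 3.72, 1.38 and 3.60 CPM to 12.8, 16.8 and 14.9 CPM (2.36 ± 0.31).

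Chaperones differed by compartment. In the endoplasmic reticulum 11 of 18 genes were lower and 0 higher by edgeR (median -0.62), with 0 higher at an unadjusted p under 0.05 and 0 by DESeq2. The BiP genes hsp-3 and hsp-4 read 463, 636 and 543 CPM in N2 and 226, 199 and 200.2 CPM in the triple mutant and 389, 557 and 641 CPM in N2 and 201, 151 and 188 CPM in the triple mutant. Neither gene's groups overlapped (a log2 difference of -1.39 ± 0.16 (SE) with an adjusted p of 9.5e-06, and a log2 difference of -1.55 ± 0.20 (SE) with an adjusted p of 3.6e-05). Calreticulin crt-1 (-0.88 ± 0.16), the disulfide isomerases pdi-2 (-0.98 ± 0.18) and pdi-6 (-0.77 ± 0.15) and the cochaperone dnj-7 (-0.86 ± 0.15) fell. Of 13 mitochondrial stress response genes 3 were higher and 1 lower (median 0.15), against 10.8% higher and 11.3% lower over all genes. The mitochondrial chaperone genes hsp-60 and hsp-6 rose, hsp-60 from 34.4, 39.1 and 34.0 CPM to 64.9, 54.5 and 60.1 CPM (0.74 ± 0.14) and hsp-6 by 0.61 ± 0.15, while dve-1, a homeodomain factor of the mitochondrial stress response, fell (-1.02 ± 0.25). Of 25 cytosolic heat shock genes 2 were higher and 0 lower by edgeR, with 1 lower at an unadjusted p under 0.05 and 0 by DESeq2. The pair of this list that rose were sip-1 (0.93 ± 0.18) and hsp-70, which rose by a log2 difference of 1.69 ± 0.44 (SE) with an adjusted p of 0.019 but lost its call without N2 replicate 2 or triple mutant replicate 1 or 3, at adjusted p-values of 0.055 to 0.063. The small heat shock protein gene named above among the class I genes also rose and is not in this list. Of 20 superoxide dismutase, catalase and peroxiredoxin genes 4 were higher and 0 lower by edgeR, with 0 lower at an unadjusted p under 0.05 and 0 by DESeq2.

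Detoxification families changed member by member. Cytochrome P450 genes were higher in 19 of 72 cases and lower in 9 (5 without N2 replicate 1, 4 without triple mutant replicate 1 or without triple mutant replicate 2). cyp-33C2 rose from 2.06, 1.90 and 3.60 CPM to 31.7, 31.2 and 34.6 CPM, cyp-13B1 rose by 1.40 ± 0.23, and cyp-37A1 fell (-1.63 ± 0.23). UDP-glucuronosyltransferases were higher in 14 and lower in 13 of 65. ugt-63 and ugt-51 read 125, 161 and 225 CPM in N2 and 18.2, 26.2 and 21.9 CPM in the triple mutant and 241, 303 and 487 CPM in N2 and 52.8, 46.3 and 57.1 CPM in the triple mutant. ugt-41 and ugt-1, by contrast, read 502, 595 and 929 CPM in N2 and 1757, 1578 and 2161 CPM in the triple mutant and 112, 124 and 151 CPM in N2 and 331, 377 and 408 CPM in the triple mutant. So members of similar level within the family lay on opposite sides, with no overlap between the groups in these 4 genes. Glutathione S-transferases were higher in 7 (4 without N2 replicate 2 or without triple mutant replicate 1 or without triple mutant replicate 2) and lower in 5 (3 without triple mutant replicate 1 or without triple mutant replicate 3) of 45, gst-10 rising (2.76 ± 0.28) and gst-22 falling (-1.98 ± 0.16). The flavin monooxygenase genes fmo-1 and fmo-2 went opposite ways (1.22 ± 0.14 and -1.47 ± 0.13). Metallothioneins did so as well: mtl-1 read 503, 333 and 607 CPM in N2 and 1386, 1621 and 1283 CPM in the triple mutant and mtl-2 1698, 1011 and 1628 CPM in N2 and 208, 303 and 165 CPM in the triple mutant. Nuclear hormone receptors were lower in 35 and higher in 11 of 224, with nhr-58 (-1.0 ± 0.15), nhr-22 (-0.83 ± 0.14) and the xenobiotic receptor nhr-8 (-0.73 ± 0.16) among those that fell.

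In lipid metabolism more oxidation and desaturation genes were called lower than higher. Of 46 beta-oxidation genes 16 were lower and 3 higher (median -0.30). cpt-3, a carnitine palmitoyltransferase, read 415, 455 and 547 CPM in N2 and 91.6, 119.6 and 111 CPM in the triple mutant (a log2 difference of -2.14 ± 0.17 (SE) with an adjusted p of 2.1e-07). The peroxisomal oxidases acox-1.1 (-1.12 ± 0.20) and acox-3 (-0.79 ± 0.13) fell. acdh-1, the acyl-CoA dehydrogenase of the propionate shunt, rose from 2.44, 1.87 and 1.70 CPM to 17.4, 23.8 and 18.9 CPM (a log2 difference of 3.32 ± 0.26 (SE) with an adjusted p of 2.0e-07). Its groups were far apart at a low level. Desaturase genes were lower in 4 of 7 cases and higher in 0 by edgeR, with 0 higher at an unadjusted p under 0.05 and 0 by DESeq2; fat-4 (-0.96 ± 0.12) and fat-3 (-0.58 ± 0.14) fell. Of lipid-binding and transport genes 11 of 31 were lower (7 without triple mutant replicate 1) and 4 higher. far-8, a fatty acid and retinol-binding protein, fell from 43.8, 35.7 and 39.3 CPM to 6.79, 10.3 and 7.71 CPM (-2.25 ± 0.21). lbp-8, a carrier of lysosomal lipid signals to the nucleus, rose (2.28 ± 0.30), as did the lipase atgl-1 (0.85 ± 0.14). Yolk protein genes together took 4.04, 5.74 and 5.96% of counts in N2 and 2.82, 2.42 and 2.76% in the triple mutant. Of 6 such genes vit-5 alone passed the test, whereas 4 were lower and 1 higher when the 6 libraries of N2 and the triple mutant were fitted alone, and 3 lower and 1 higher with no filter on low counts.

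Carbohydrate and nuclear respiratory chain genes were called in both directions, against 10.8% higher and 11.3% lower over all tested genes. The respiratory chain shares were near these. Carbohydrate genes had a larger share higher and a smaller share lower. Of 39 genes of glycolysis, gluconeogenesis, the glyoxylate shunt and trehalose 7 were higher (3 without N2 replicate 1 or without triple mutant replicate 3) and 3 lower. The trehalase tre-3 fell from 26.9, 25.1 and 24.6 CPM to 6.82, 8.17 and 6.32 CPM (a log2 difference of -1.85 ± 0.18 (SE) with an adjusted p of 1.7e-06), though 3 annotated non-coding RNA genes overlap it. The alpha-glucosidase aagr-2 fell (-1.17 ± 0.13) and lactate dehydrogenase ldh-1 rose (0.72 ± 0.13). Nuclear genes of the respiratory chain were higher in 6 (3 without N2 replicate 1 or without triple mutant replicate 2 or without triple mutant replicate 3) and lower in 6 (3 without triple mutant replicate 3) of 46. The adenine nucleotide translocase genes ant-1.3 and ant-1.4 rose, from 2.48, 4.85 and 6.19 CPM to 17.2, 17.6 and 18.6 CPM (1.98 ± 0.27) and from 1.91, 1.93 and 4.15 CPM to 11.1, 11.6 and 12.2 CPM (2.12 ± 0.29). ucr-2.1, of complex III, and sdha-1, of complex II, fell (-0.75 ± 0.15 and -0.62 ± 0.14); both are X-linked. Of the 16 tested genes of the mitochondrial genome 0 were called by edgeR, with 0 at an unadjusted p under 0.05 and 0 called by DESeq2. In the methionine cycle metr-1, methionine synthase, rose (0.75 ± 0.15) and the phosphoethanolamine methyltransferase pmt-2 fell (-0.87 ± 0.13).

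**Figure D3:**
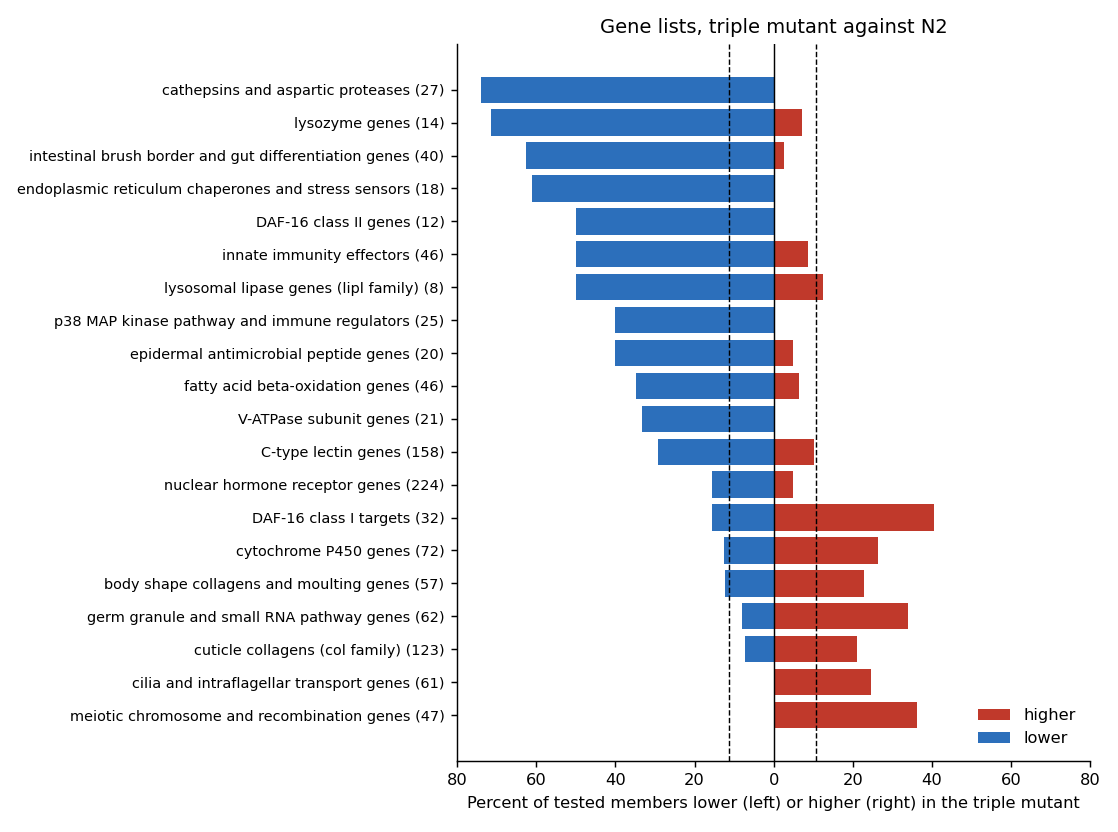
Percent of tested members called higher (right) and lower (left) in the triple mutant for 20 gene lists, with the number of tested members after each name; dashed lines mark the percent over all tested genes (10.8% higher and 11.3% lower). Lysozymes, proteases and brush border genes extend to the left, and cilia, meiotic and collagen genes to the right.

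Genes of the cuticle, the collagen coat made by the epidermis, were more often higher. Of 123 col genes 26 were higher and 9 lower (median 0.68), and of 57 body shape collagens and moulting genes 13 were higher and 7 lower (3 without N2 replicate 1, 4 without N2 replicate 3 or without triple mutant replicate 1 or without triple mutant replicate 3). col-81 read 10.3, 7.44 and 6.22 CPM in N2 and 66.1, 89.5 and 59.3 CPM in the triple mutant (a log2 difference of 3.17 ± 0.27 (SE) with an adjusted p of 4.9e-07). No N2 library came near the triple mutant. col-71 (2.07 ± 0.20), col-38 (2.83 ± 0.30), dpy-17 (1.67 ± 0.15), dpy-9 (2.64 ± 0.30) and ram-2 (2.77 ± 0.23) rose. col-19, the collagen used as a marker of the adult cuticle, went the other way, from 201, 146 and 106 CPM to 43.8, 61.2 and 37.0 CPM (a log2 difference of -1.67 ± 0.31 (SE) with an adjusted p of 0.0016). elt-3, a GATA factor of the epidermis, did not pass the test (-0.27 ± 0.16, adjusted p = 0.24). In the glutamine-rich abu and pqn family 10 of 52 were higher (4 without N2 replicate 1, 5 without N2 replicate 2 or without N2 replicate 3, 6 without triple mutant replicate 1 or without triple mutant replicate 2), among them abu-14 (2.60 ± 0.23), and 7 lower (4 without triple mutant replicate 1), among them pqn-92 (-1.53 ± 0.14).

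Some genes of sensory cilia rose. Of 61 cilia and intraflagellar transport genes 15 were higher (8 without N2 replicate 1 or without triple mutant replicate 3, 9 without triple mutant replicate 1) and 0 lower (median 0.74), with 0 lower at an unadjusted p under 0.05 in edgeR and 0 by DESeq2. dyf-3, a part of the intraflagellar transport machinery, read 35.0, 28.7 and 43.7 CPM in N2 and 167, 191 and 162 CPM in the triple mutant (a log2 difference of 2.28 ± 0.16 (SE) with an adjusted p of 6.9e-08). mapk-15, a kinase found in cilia, read 1.88, 1.18 and 1.19 CPM in N2 and 26.9, 31.3 and 32.7 CPM in the triple mutant (a log2 difference of 4.42 ± 0.33 (SE) with an adjusted p of 1.2e-07). For both genes the 3 triple mutant libraries were close together and far above N2. mks-5, of the transition zone (2.64 ± 0.32), the kinesin osm-3 (1.95 ± 0.27) and arl-13 (1.15 ± 0.22) rose too.

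Of 28 pan-neuronal markers 2 were higher (1 without N2 replicate 1 or without N2 replicate 2 or without N2 replicate 3 or without triple mutant replicate 3) and 1 lower (0 without N2 replicate 3, 2 without triple mutant replicate 3), and by DESeq2 3 were lower. Of 48 sensory cGMP and TRP signalling genes 5 were higher (3 without N2 replicate 1 or without triple mutant replicate 1 or without triple mutant replicate 2, 2 without N2 replicate 2 or without N2 replicate 3 or without triple mutant replicate 3) and 0 lower by edgeR (1 without N2 replicate 3 or without triple mutant replicate 2 or without triple mutant replicate 3), with 3 lower at an unadjusted p under 0.05 and 1 by DESeq2. With the replicate block 2 of them were higher. Of 30 guanylyl cyclase genes 2 were higher (4 without triple mutant replicate 2) and 0 lower by edgeR (1 without N2 replicate 2 or without triple mutant replicate 1 or without triple mutant replicate 2), with 2 lower at an unadjusted p under 0.05, and by DESeq2 5 were higher and 1 lower. The 4 neuron markers summed to 198, 176 and 181 CPM in N2 and 148, 164 and 143 CPM in the triple mutant. The largest part was snb-1, which did not pass the test (-0.27 ± 0.13, adjusted p = 0.14). Of these 4 only unc-64 (syntaxin) was called, lower (a log2 difference of -0.48 ± 0.14 (SE) with an adjusted p of 0.02), a call that ended without N2 replicate 3 or triple mutant replicate 1, at adjusted p-values of 0.052 and 0.087, and at 0.059 with no filter on low counts. Of 30 FMRFamide-like peptide genes 0 were higher and 0 lower by edgeR, with 1 higher and 2 lower at an unadjusted p under 0.05 and 1 lower by DESeq2; edgeR called 2 lower without N2 replicate 2 and 1 without triple mutant replicate 2. Glutamate signalling genes were higher in 8 and lower in 5 (3 without N2 replicate 3 or without triple mutant replicate 1) of 38. glc-1, a glutamate-gated chloride channel and ivermectin target, read 227, 218 and 209 CPM in N2 and 77.4, 99.8 and 99.6 CPM in the triple mutant (a log2 difference of -1.24 ± 0.14 (SE) with an adjusted p of 9.5e-06). sol-2 (1.98 ± 0.26) and glr-2 (1.46 ± 0.28), parts of AMPA-type receptors, rose, and the transporter glt-1 fell (-0.73 ± 0.16). Of 53 acetylcholine signalling genes 2 were higher (4 with the replicate block) and 5 lower, both shares below those over all genes. The 5 lower became 3 without any 1 N2 library or without triple mutant replicate 1 or 2. The genes called higher were the receptor genes unc-38 and acr-20. unc-38 rose from 12.8, 10.1 and 9.52 CPM to 39.0, 35.7 and 43.1 CPM (a log2 difference of 1.86 ± 0.17 (SE) with an adjusted p of 9.5e-07) and acr-20 rose by 2.85 ± 0.28. tbh-1, which makes octopamine, fell from 396, 439.6 and 389 CPM to 204, 189.9 and 158 CPM (-1.15 ± 0.14). srg-31, a serpentine receptor gene, rose from 188, 124 and 219.8 CPM to 1029.8, 1305 and 702 CPM (2.51 ± 0.31), and sri-40, another, fell from 178, 159 and 128 CPM to 20.4, 30.6 and 19.6 CPM (-2.72 ± 0.29).

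Serpentine receptor genes, the chemoreceptor families of the worm, were higher in 26 (6.21%) and lower in 9 (2.15%) of 419. Both shares are below those over all genes. The summed level was 774, 666 and 833 CPM in N2 and 1509, 1815 and 1256 CPM in the triple mutant, low for 419 genes. srg-31, whose values are given above, made up most of the sum in each triple mutant library. The higher sum therefore does not describe the family as a whole. Among all tested genes under 1 CPM 3.55% were called higher and 2.16% lower. The median log2 difference was 0.45 for the family, 0.04 over all tested genes and 0.25 for those under 1 CPM. Neuropeptide-like protein genes were lower in 11 (6 without N2 replicate 1 or without N2 replicate 3, 5 without triple mutant replicate 3) and higher in 2 of 68; besides the epidermal peptides above, nlp-12, a cholecystokinin-like peptide of a stretch-sensing neuron, fell (-1.19 ± 0.25) and nlp-17 rose (1.10 ± 0.20). Among the spr, CoREST-complex and presenilin genes 2 of 20 were higher (4 without N2 replicate 2) and 1 lower. Besides spr-3 and spr-4 the called gene was lin-12, a Notch receptor cleaved by presenilin, which rose from 7.88, 7.34 and 7.72 CPM to 14.3, 14.7 and 17.4 CPM (a log2 difference of 1.01 ± 0.20 (SE) with an adjusted p of 0.0019). The presenilin genes themselves did not pass the test, with -0.10 ± 0.17 for hop-1 (adjusted p = 0.73) and -0.22 ± 0.19 for sel-12 (adjusted p = 0.46).

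Chromatin genes were higher in 13 (6 without N2 replicate 1 or without triple mutant replicate 1 or without triple mutant replicate 3, 8 without N2 replicate 3) and lower in 3 (1 without triple mutant replicate 3) of 79. mes-4, a histone H3 lysine methyltransferase that keeps germline chromatin, rose (0.64 ± 0.13), as did set-32 (1.04 ± 0.18), which acts in small RNA inheritance, while the mitochondrial sirtuin sir-2.2 fell from 49.98, 41.3 and 41.9 CPM to 24, 25.1 and 18.4 CPM (-0.98 ± 0.14). Among translation factor genes 6 of 45 were higher and 1 lower (0 without N2 replicate 1 or without triple mutant replicate 1 or without triple mutant replicate 3, 2 without N2 replicate 2). The largest difference was that of ife-5, a germline cap-binding protein, at 10.6, 10.0 and 16 CPM in N2 and 38.2, 37.2 and 35.2 CPM in the triple mutant (a log2 difference of 1.59 ± 0.19 (SE) with an adjusted p of 2.0e-05). The somatic cap-binding protein gene ife-2, whose loss lengthens life, was called lower (-0.53 ± 0.16, adjusted p = 0.027), a call lost without N2 replicate 1, triple mutant replicate 1 and triple mutant replicate 3 (adjusted p 0.089 to 0.13). Genes of the muscle sarcomere were lower in 7 and higher in 2 (1 without N2 replicate 1 or without N2 replicate 3 or without triple mutant replicate 2 or without triple mutant replicate 3) of 48. alpha-actinin atn-1 fell from 42.4, 60.0 and 59.3 CPM to 28.7, 26.9 and 25.7 CPM (-0.99 ± 0.14), and myo-3, a myosin heavy chain of body wall muscle, rose from 18.4, 33.2 and 30.6 CPM to 58.4, 39.0 and 63.9 CPM (0.97 ± 0.21).

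Germline genes were more often higher. Of 47 meiotic chromosome genes 17 were higher (11 without triple mutant replicate 3) and 0 lower by edgeR (median 0.44), with 0 lower at an unadjusted p under 0.05 and 0 by DESeq2. Of 62 germ granule and small RNA genes 21 were higher and 5 lower (3 without N2 replicate 2 or without triple mutant replicate 2 or without triple mutant replicate 3). pgl-1, a scaffold of P granules, read 52.6, 54.8 and 44.8 CPM in N2 and 125, 101 and 121 CPM in the triple mutant (a log2 difference of 1.19 ± 0.14 (SE) with an adjusted p of 1.1e-05). csr-1, an Argonaute protein that licenses germline genes, read 44.7, 41.9 and 44.1 CPM in N2 and 123, 89.0 and 108 CPM in the triple mutant (a log2 difference of 1.29 ± 0.16 (SE) with an adjusted p of 2.8e-05). The groups did not overlap for either. htp-3 (1.02 ± 0.14) and com-1 (1.09 ± 0.17), of the meiotic axis and of break repair, rose. sid-2, needed in the gut to take up double-stranded RNA from food, fell (-1.57 ± 0.20). DNA replication and cell division genes were higher in 17 of 80 cases (10 without N2 replicate 1 or without N2 replicate 3, 9 without triple mutant replicate 1) and lower in 4 (2 without N2 replicate 1 or without N2 replicate 2 or without triple mutant replicate 1 or without triple mutant replicate 2 or without triple mutant replicate 3).

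Oocyte and eggshell genes went both ways, 12 higher and 12 lower (6 without N2 replicate 1 or without N2 replicate 2 or without triple mutant replicate 2 or without triple mutant replicate 3) of 55. lin-41, a regulator of oocyte growth, rose from 26.9, 41.2 and 29.7 CPM to 100.1, 62.0 and 95.7 CPM (a log2 difference of 1.40 ± 0.21 (SE) with an adjusted p of 1.8e-04), and egg-2, needed at fertilization, rose by 1.24 ± 0.19. perm-4 and perm-2, eggshell proteins, were far more abundant and fell, at 21917, 19868 and 20308 CPM in N2 and 11281, 12759 and 10599 CPM in the triple mutant (-0.84 ± 0.17) and at 7684, 6588 and 7167 CPM in N2 and 3322, 4232 and 2959.6 CPM in the triple mutant (-1.03 ± 0.19). Of 37 sperm genes 9 were higher and 0 lower, with 1 lower at an unadjusted p under 0.05 in edgeR and 1 by DESeq2. smz-1, a sperm protein, read 7.92, 7.74 and 9.45 CPM in N2 and 46.7, 57.5 and 45 CPM in the triple mutant (a log2 difference of 2.57 ± 0.16 (SE) with an adjusted p of 2.2e-08). spe-9, which sperm need to fertilize and which was fixed as a sperm marker, read 0.188, 0.492 and 0.136 CPM in N2 and 4.84, 4.91 and 5.93 CPM in the triple mutant (4.23 ± 0.56). Major sperm protein genes, by contrast, were higher in 0 and lower in 3 (5 without N2 replicate 1, 0 without N2 replicate 3) of 34 by edgeR, with 0 higher at an unadjusted p under 0.05 and 0 by DESeq2, and these near-identical copies may share reads. Of the 2 single-gene sperm markers spe-9 alone was called, and it was the smaller part of their sum. Together they summed to 42.2, 39.8 and 45.6 CPM in N2 and 30.9, 45.1 and 39.3 CPM in the triple mutant, ranges that overlap. The 4 germline and oocyte markers summed to 1669, 2013 and 1788 CPM in N2 and 1884, 1689 and 2117 CPM in the triple mutant, ranges that overlap. The 4 early embryo markers summed to 2.66, 1.84 and 1.46 CPM in N2 and 5.03, 6.62 and 5.77 CPM in the triple mutant, higher in each triple mutant library than in N2, and the part of embryos in these values was not tested. Of these 4 low-level genes 1 was called higher and 0 lower. Of the other tissues, body wall muscle markers summed to 1164, 1565 and 1680.0 CPM in N2 and 1848, 1690.0 and 2107 CPM in the triple mutant, coelomocyte markers to 73.2, 69.9 and 70.7 CPM in N2 and 67.5, 70.9 and 70.4 CPM in the triple mutant, pharynx markers to 185, 137 and 248 CPM in N2 and 132, 166 and 238 CPM in the triple mutant and epidermis markers to 223, 163 and 127 CPM in N2 and 59.3, 77.1 and 55.7 CPM in the triple mutant. In the epidermis sum col-19 was by far the largest part. Of the other epidermis markers elt-3 was not called and dpy-7 had too few counts to test.

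The X chromosome differed from the autosomes. Of 2528 tested X-linked genes 75 (2.97%) were higher and 497 (19.7%) lower in the triple mutant, with a median log2 difference of -0.281. On the autosomes 12.2% of 15670 genes were higher and 10.1% lower, with a median of 0.084. Chromosome I stood at the other end, with 13.6% higher and 6.43% lower. At each level a larger share of X-linked than of autosomal genes was lower and a smaller share higher, but the gap varied. Among genes of 10 to 100 CPM 37% of X-linked genes were lower against 14.4% of autosomal genes, and 3.07% against 16.5% were higher. At 1 to 10 CPM the gap in falls was narrower, at 10.9% against 8.37%, whereas 3.62% against 14.5% were higher. Under 1 CPM 2.61% against 2.12% were lower and 1.91% against 3.86% higher. Over 100 CPM 35.6% against 18.5% were lower and 2.58% against 8.11% higher. Over the alternative settings given in the closing section the X-linked median stayed between -0.31 and -0.26. X-linked genes took 19.8, 19.9 and 20.7% of counts in N2 and 15.7, 16.1 and 15.1% in the triple mutant. Most yolk protein genes are X-linked, and without them the shares were 17.1, 16.1 and 16.6% and 14.0, 14.6 and 13.4%. The groups did not overlap in either measure, and the two-sided exact permutation p of 0.1 is the smallest that 3 against 3 libraries can give. Germline tissue expresses few X-linked genes, as background, and germline genes were among those that rose; their part in the X-linked lean was not tested. The X-linked shares were 14.2, 13.4 and 13.3% in daf-2 and 11.7, 14.4 and 12.1% in the spr-4;spr-3 double mutant without yolk genes, below N2 in each library. X-linked genes that fell included hsp-3, pdi-2, nuc-1, sgk-1, ifd-2 and tbh-1, and X-linked genes that rose included sod-3, spr-3, cyp-13B1 and egl-13 (1.33 ± 0.18).

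**Figure D4:**
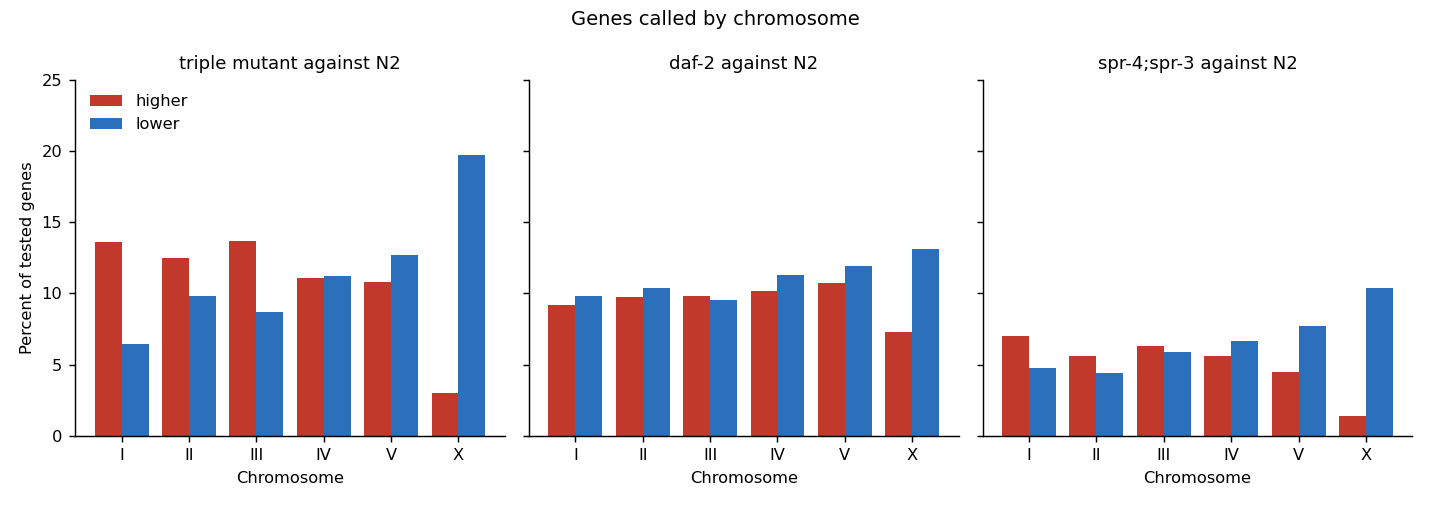
Percent of tested genes higher and lower than N2 on each chromosome (horizontal axis) in the triple mutant, in daf-2 and in the spr-4;spr-3 double mutant. The 3 comparisons share the N2 libraries. In the triple mutant the X chromosome has 2.97% of genes higher and 19.7% lower, and chromosome I has 13.6% higher and 6.43% lower.

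Some strongly changed genes were neighbours. A run of at least 3 consecutive tested genes, each called in the same direction with a change of at least 4-fold, was found at 29 places. These include runs of nspc genes, whose reads cannot be split with certainty. They also include 7 piRNA genes close together on chromosome IV, 5924799 to 5926564. The 29 are therefore not a count of independent changes. Over all tested genes 2.46% were called with a rise of that size and 2.08% with a fall. On chromosome IV, 10073404 to 10085451 (WBcel235), 6 genes in a row from ttbk-4 to col-2 rose, by 3.42 to 7.89 on the log2 scale. On chromosome V, 1130112 to 1139182, 3 genes that include cpr-5 and cpr-8 fell, by values from -6.46 to -3.80. On chromosome IV, 11621429 to 11627947, the 3 lysozyme genes lys-4, lys-5 and lys-6 fell. On chromosome V, 2322038 to 2330930, 6 genes of the pud family fell by values from -4.06 to -2.93; these are close copies whose reads may be shared.

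Each gene could be placed by the 2 parent genotypes, which share the N2 libraries with this comparison. At the same threshold 20.6% of tested genes differed between daf-2 and N2 and 11.7% between spr-4;spr-3 and N2. The share for spr-4;spr-3 rested on single libraries: its count of 2141 became 3139 without spr-4;spr-3 replicate 2 and 943 without its replicate 3, 1030 without its replicate 1, 1048 without N2 replicate 1 and 1011 without N2 replicate 3. icmt-1 read 498, 425 and 445 CPM in daf-2 and 24.2, 26.6 and 18.5 CPM in spr-4;spr-3, so the triple mutant was near the daf-2 level. clx-1 read 132, 83.8 and 109 CPM in daf-2 and 1.05, 1.97 and 0.0544 CPM in spr-4;spr-3. mapk-15 showed the opposite layout, with 1.61, 1.85 and 3.48 CPM in daf-2 and 20.3, 18.0 and 10.5 CPM in spr-4;spr-3. fkb-4 also read low in daf-2, at 5.36, 4.67 and 5.16 CPM, and higher in spr-4;spr-3, at 18.7, 30.7 and 26.1 CPM.

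Some genes were called against N2 and against each parent in the same direction. Against daf-2 6.77% of all tested genes were called higher and 6.65% lower (13.4% in all), and against spr-4;spr-3 7.02% higher and 7.92% lower (14.9% in all). By size the first 5 that rose were mapk-15, R08E5.4 (5.66 ± 0.44), Y39H10A.1 (5.56 ± 0.23), F59A7.11 (5.35 ± 0.30) and T24H10.5 (4.24 ± 0.46). T24H10.5 read 1.13, 0.393 and 1.16 CPM in N2 and 16.4, 17.9 and 16.2 CPM in the triple mutant, with 1.25, 2.50 and 1.41 CPM in daf-2 and 1.82, 5.47 and 5.65 CPM in spr-4;spr-3, so that the triple mutant libraries were the highest of the 12. For 3 of these genes the call against daf-2 rested on single libraries: R08E5.4 lost it without any 1 of the daf-2 or triple mutant libraries (adjusted p 0.091 to 0.12), Y39H10A.1 without daf-2 replicate 2 or 3 or any 1 triple mutant library (0.069 to 0.16) and F59A7.11 without daf-2 replicate 2 or 3 or triple mutant replicate 2 or 3 (0.056 to 0.10). mapk-15 lost its call against spr-4;spr-3 without spr-4;spr-3 replicate 3 or any 1 triple mutant library (0.058 to 0.17). With the replicate block the adjusted p was 0.061 for this call and 0.051 for that of R08E5.4 against daf-2. The first 5 that fell were cpr-8, cpr-5, arrd-8, ilys-2 and W06G6.20. cpr-5 read 64.9, 63.6 and 54.3 CPM in daf-2 and 119, 245 and 145 CPM in spr-4;spr-3. Both parents lay between N2 and the triple mutant, with a log2 difference of -1.67 ± 0.26 (SE) with an adjusted p of 6.5e-04 against daf-2. arrd-8 lost its call against daf-2 without daf-2 replicate 1 or 3 or any 1 triple mutant library (0.061 to 0.15).

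The departure of the triple mutant from the sum of the parent differences, on the log2 scale, passed the threshold for 1526 genes (8.32%), 897 above the sum (4.89%) and 629 below it (3.43%). The count was 2505 without spr-4;spr-3 replicate 2, and without each other library in turn it was between 772 and 1461. Y41C4A.11 read 885, 853 and 964 CPM in N2, 20.2, 17.0 and 18.6 CPM in daf-2, 250.1, 328 and 368 CPM in spr-4;spr-3 and 93.2, 79.0 and 87.5 CPM in the triple mutant. Each mutant lay below N2, with daf-2 the lowest and the triple mutant above it, a departure of 3.73 ± 0.22 (adjusted p = 1.2e-07). fmo-2, the flavin monooxygenase tied to longevity by hypoxia and food restriction, read 84.4, 84.9 and 78.6 CPM in N2, 11.6, 10.1 and 11.9 CPM in daf-2, 31.1, 39.3 and 33.1 CPM in spr-4;spr-3 and 30.0, 30.8 and 28.8 CPM in the triple mutant, a departure of 2.67 ± 0.19 (adjusted p = 1.0e-06). F15H10.5 was low in the other 3 genotypes and read 18.3, 16.7 and 22.6 CPM in the triple mutant, a departure of 4.56 ± 0.58 (adjusted p = 5.9e-04). Below the sum, dao-6 read 40.3, 29.4 and 60.8 CPM in N2, 1329, 889.8 and 1589 CPM in daf-2, 109, 131 and 62.8 CPM in spr-4;spr-3 and 518, 600.5 and 519.9 CPM in the triple mutant, between daf-2 and the double mutant (departure -2.43 ± 0.41, adjusted p = 0.0033).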

How the data were processed

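RNA came from pools of whole worms, per the labels' protocols; full-length cDNA was made and amplified from a small RNA input, so low counts can carry amplification noise, and the kits named do not mark strand. The values are whole-number counts per gene, deposited by the authors without normalization. Per the submitters' processing notes, STAR, featureCounts 1.5.1 and the build WBcel235 were used; the aligner version, annotation release, strand setting and handling of multi-mapped reads were found in no label or header. The design text gives 3 biological replicates per group. Groups follow the titles, and each column matched 1 title.

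The 12 libraries were fitted together in edgeR 4.0.16 (R 4.3.3, limma 3.58.1) with filterByExpr (minimum count 10, minimum total 15), TMM scaling and a robust quasi-likelihood fit, with no replicate block; 18342 of 46739 listed genes were tested, and 43720 IDs had a symbol in the reference name table. Standard errors are the absolute log2 difference divided by the square root of F. DESeq2 1.42.0 was an alternative, beside those in the closing section. Counting intervals and the floor of 3 counts cover counting error only. The script was tested on simulated counts. Gene positions and biotypes are from the reference annotation of WBcel235; overlaps were counted on it.

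The comparison, gene lists and markers were chosen with earlier results of these data known. Named genes are a fixed set of 10 focal genes, the largest 12 rises and falls, up to 6 members of each list, the largest departures, the 5 largest changes each way against N2 and both parents, and the tissue markers; dod-17 and lys-5 were named after their values were seen.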

Additional observations from a re-analysis of the deposited data

Results flagged for a closer look

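42 of the genes described above have an effect of daf-2 that differed with the spr genotype: in the triple mutant the log2 difference from N2 departed from the sum of the differences of daf-2 and of spr-4;spr-3, by edgeR's quasi-likelihood test of that contrast with Benjamini-Hochberg adjustment over all tested genes. The value given for each is the departure on the log2 scale, positive where the triple mutant lay above the sum. All of these contrasts share the N2 and parent libraries.

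For 24 of them the departure stayed past the threshold under edgeR with DESeq2 size factors, no filter on low counts, a replicate block and each of the 12 libraries left out, settings chosen after seeing the data. Above the sum were B0024.4 (2.38), F15H10.5 (4.56), Y41C4A.11 (3.73), ZK896.4 (3.07), act-5 (1.03), arl-13 (1.52), col-71 (1.26), col-81 (1.57), crn-6 (1.77), fmo-2 (2.67), ifb-2 (1.21), ilys-2 (1.95), irg-2 (0.88), lys-3 (2.68) and zip-10 (1.04). Below it were aagr-2 (-0.86), acox-3 (-1.38), col-50 (-1.73), cyp-33C2 (-1.53), dao-6 (-2.43), irg-5 (-1.67), lipl-4 (-1.21), ugt-1 (-1.15) and ugt-63 (-1.46).

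For the other 18 genes at least 1 of those settings ended the call. Above the sum were cpr-4 (1.79), cpr-5 (1.41), dod-19 (1.16), irg-8 (1.11), lys-5 (2.29) and ram-2 (1.15). Below it were clx-1 (-9.64), dyf-3 (-0.81), elt-3 (-0.74), ges-1 (-1.45), hsp-60 (-0.84), icmt-1 (-1.08), ins-23 (-1.29), metr-1 (-0.88), osm-3 (-1.53), pqm-1 (-0.85), sdha-1 (-0.71) and vha-12 (-0.68). The fitted value of clx-1 rests on N2 libraries with no counts and is no measure of size.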

How the results depend on the processing

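The 4068 calls between the triple mutant and N2 became 4015 with DESeq2 size factors, 4838 with DESeq2, 4410 with no filter on low counts, 3973 with the 6 libraries alone and 2931 to 3517 when each library of the 2 genotypes was left out. Calls higher lay between 1402 and 1683 and calls lower between 1529 and 1834 without a library, and calls of at least 2-fold between 1763 and 1983. Libraries with the same number did not deviate together, with correlations of their deviations from the group means of -0.0019, -0.0538 and 0.0345 across genes, so the numbers show no pairing. With the replicate block 3651 genes were called, 1743 higher and 1908 lower, and 1996 at least 2-fold. Of 186 genes described, 180 were called and 175 of these kept their call in all of these settings; 0 changed sign. The exceptions were spr-4, dod-17, hsp-70, unc-64 and ife-2; dod-17 had an adjusted p of 0.074 with the block, the others are given in the report, and the cause was not tested. Counts of called members of a gene list moved by over 1.5 times in 276 recomputations and stayed within it in 1550; those without a library stand beside the list counts in the report. Serpentine receptor genes had 42 higher and 17 lower by DESeq2 and 44 and 17 with no filter; V-ATPase genes had 4 lower with no filter, with 6 libraries and with the replicate block; DNA replication genes had 10 lower by DESeq2 and 2 in those 3 settings. Smaller moves were 4 glutathione S-transferase genes higher and 3 germ granule genes lower with 6 libraries, 3 glutamate signalling genes lower with 6 libraries and with the block, 3 respiratory chain genes higher with no filter, and 5 major sperm protein genes lower by DESeq2 and with no filter. For the contrasts with the parent strains, whose alternatives were chosen after seeing the data, departures numbered 1526, 1151 with the replicate block and 2213 with no filter. Calls against daf-2 numbered 2461 (1376 without daf-2 replicate 3) and against spr-4;spr-3 2739 (1582 to 3303 without a library). With 3 libraries per genotype, genes under the filter were not tested, and a gene that missed the threshold is not shown to be unchanged. Yolk protein genes and cathepsins, whose counts also moved, are given in the report. A description of promoter motifs was not run.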
